A study of Mus musculus with 8 samples.

Results

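The genes examined here encode proteins that neutrophils store in granules, and they are Ngp, Camp, Ltf, Lcn2, Mmp8, Cd177, Mmp9, Elane and Mpo, 9 of the 32285 genes in the count tables. They were taken by name and not by a threshold on measured values. The study sorted CD45+CD11b+Ly6Chi cells, its monocytic myeloid-derived suppressor cell (mMDSC) gate, from tumors or blood of mice that bore MC38 tumors, an established mouse colon carcinoma line. Cells of WT mice (Ythdf2 fl/fl) and of Ythdf2-cKO mice (Lyz-Cre with the same floxed alleles) were marked with separate hashtag antibodies and run together in 1 single-cell RNA library for each tissue and treatment. The Cre recombinase is driven from the Lyz2 locus and acts in myeloid cells. The treatment was 1 dose of 20 Gy to the tumor, with cells collected 3 days later (IR), or no irradiation (control). The 4 libraries and 2 hashtags gave 8 groups, and each group was 1 pool of mice. There were therefore no replicates and no tests, and every interval below is a 95% interval of counting error alone.

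Neutrophil granules are filled in sequence as the cell matures in the bone marrow. Azurophil granules come first, at the promyelocyte stage, and hold neutrophil elastase (Elane) and myeloperoxidase (Mpo). Specific granules follow at the myelocyte and metamyelocyte stages and hold the cathelicidin precursor (Camp), lactoferrin (Ltf), lipocalin 2 (Lcn2), collagenase 2 (Mmp8) and the neutrophilic granule protein (Ngp), and CD177 is found on their membrane. Gelatinase granules, with gelatinase B (Mmp9), are made last. The mRNAs of the early granule proteins are known to be lost as the cell matures, while the proteins stay in the granules, so that mature blood neutrophils carry the proteins with little of the message.

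Camp, Ngp and Ltf, the members that moved most closely together below, lie near each other on mouse chromosome 9. In the GRCm38 (mm10) build with the GENCODE vM21 annotation, Camp is at chr9:109847379-109849617 on the minus strand, Ngp at chr9:110419747-110423012 and Ltf at chr9:111019271-111042767, both on the plus strand. Mmp8 is on the same chromosome but far from them, at chr9:7558456-7568485. The other members are Lcn2 at chr2:32384633-32388252, Mmp9 at chr2:164940780-164955850, Cd177 at chr7:24743983-24760311, Elane at chr10:79886247-79888215 and Mpo at chr11:87793581-87804413. RefSeq promoter entries were present for 8 of the 9 genes, all but Mmp9. The windows searched for motifs were the 250 bases before the RefSeq start, which for 6 of these 8 genes lies inside the GENCODE gene. For the chromosome 9 trio and for Elane, which stood apart from the trio in the data, the part of the window before the GENCODE start (89 to 229 bases) is shown 5′ to 3′ on the strand of the gene, because C/EBP factors and PU.1 are the best known regulators of these genes. Capitals mark the letters TTGCNNAA (a C/EBP-type sequence) and GAGGAAGT (a PU.1-type sequence), each searched on both strands, and no match of one overlapped a match of the other.
Ngp (chr9:110419558-110419746): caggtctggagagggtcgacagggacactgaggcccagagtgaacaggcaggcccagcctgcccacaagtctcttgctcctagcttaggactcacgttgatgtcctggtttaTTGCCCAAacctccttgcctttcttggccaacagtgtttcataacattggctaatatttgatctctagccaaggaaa
Ltf (chr9:111019042-111019270): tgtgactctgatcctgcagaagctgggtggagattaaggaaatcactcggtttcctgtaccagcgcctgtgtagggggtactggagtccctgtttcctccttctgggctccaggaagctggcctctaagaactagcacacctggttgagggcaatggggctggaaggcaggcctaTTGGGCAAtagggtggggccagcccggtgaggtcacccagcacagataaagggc
Camp (chr9:109849618-109849706, minus strand): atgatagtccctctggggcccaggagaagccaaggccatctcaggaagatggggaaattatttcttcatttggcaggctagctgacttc
Elane (chr10:79886062-79886246): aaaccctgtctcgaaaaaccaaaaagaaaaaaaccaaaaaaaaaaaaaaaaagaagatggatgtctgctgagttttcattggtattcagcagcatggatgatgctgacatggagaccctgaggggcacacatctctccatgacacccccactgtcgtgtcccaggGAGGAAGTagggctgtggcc

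In the windows of 250 bases, the C/EBP-type letters were present 2 times for Ngp, of which 1 is in the part shown, and 1 time for Ltf, Lcn2 and Mmp8, and were not found for Camp, Cd177, Elane and Mpo. The PU.1-type letters were present 1 time for Elane, Mpo and Mmp8. Of all 32851 promoters of the same length, 9.56% held the first sequence and 2.44% the second.

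After filtering, 27428 cells were kept, 4667 from tumor control, 6885 from tumor IR, 8397 from blood control and 7479 from blood IR, with a median of 2866 to 3219 UMIs per cell in the blood groups and 6005 to 8563 in the tumor groups. A UMI (unique molecular identifier) stands for 1 captured mRNA molecule. Ythdf2, the targeted gene, went against the labels at the level of 3′ tags, with 5783 to 8813 UMIs per group labelled cKO, at most 370.2 CPM (a group's UMIs of a gene scaled to 1000000 gene UMIs in all), and 706 to 1128 UMIs, at most 55.6 CPM, per group labelled WT. Such tags do not show whether the deleted part of the gene is present in a transcript. Lyz2, whose locus carries the Cre, was at 82.7 to 138 CPM in the groups labelled cKO and 5608 to 14134 CPM in those labelled WT, and WT and cKO below are the hashtag labels. The tumor matrices held each other's cells, since 12184 barcodes passed the quality filters in both, of which 4792 carried at least 20 hashtag UMIs only in tumor control and 7119 only in tumor IR. The hashtag minimum assigned these barcodes to a library, and 32 barcodes were kept in both tumor libraries (other pairs of libraries shared 7 to 21). Granule gene values in tumor therefore rest on that assignment. Clustering without the granule genes gave 22 clusters, and 11569 cells in 5 of them were named neutrophil-like from markers such as S100a8, Csf3r, Cxcr2 and Retnlg. Neutrophil-like cells made up 66.8% to 70.9% of each blood group despite the Ly6Chi gate, and 0.714% (tumor control WT), 1.31% (tumor control cKO), 10.5% (tumor IR WT) and 6.51% (tumor IR cKO) of the tumor groups.

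In blood, the share of cells with at least 1 UMI separated the members into abundant and rare messages. In control blood, Mmp9 was found in 67.2% of the WT and 65.5% of the cKO pool, and in 72.1% and 71.2% after IR. Mmp9 was the most widely detected member in each blood group. Lcn2, which binds bacterial siderophores, was found in 43.6% (42.2 to 45.1) of the WT and 56.4% (54.8 to 58.0) of the cKO pool in control blood, and in 48.2% and 51.2% after IR. Mmp8 was found in 39.5% and 46.8% in control and 45.9% and 51.9% after IR. Cd177, a surface protein of part of the neutrophils, was found in 17.4% of the WT and 31.4% of the cKO pool in control blood and in 18.5% and 20.9% after IR. In control blood the cKO share was thus above the WT share for each of these 3 genes, and the gap was smaller after IR.

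Ngp-positive cells were 3.59% (3.08 to 4.17) of the WT pool in control blood and 17.2% (16.0 to 18.5) of the cKO pool. After IR they were 123 of 4097 WT cells (2.50% to 3.57%) and 113 of 3382 cKO cells, or 3.34%. The cKO control pool stood apart from the other 3 blood groups. Camp was also highest in the cKO control pool, with 0.650% and 4.21% in control and 0.683% and 0.562% after IR. Ltf, the iron-binding lactoferrin, was found in 0.996% and 3.41% in control and 0.781% and 0.532% after IR. Elane was found in 0.195% of the WT and 0.529% of the cKO pool in control, and in 1.12% and 1.83% after IR, so that its highest group was not that of Ngp. Mpo was found in 0.0866%, 0.0794%, 0.171% and 0.266% of cells in the same order, which is 3 to 9 cells per group.

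**Figure D1:**
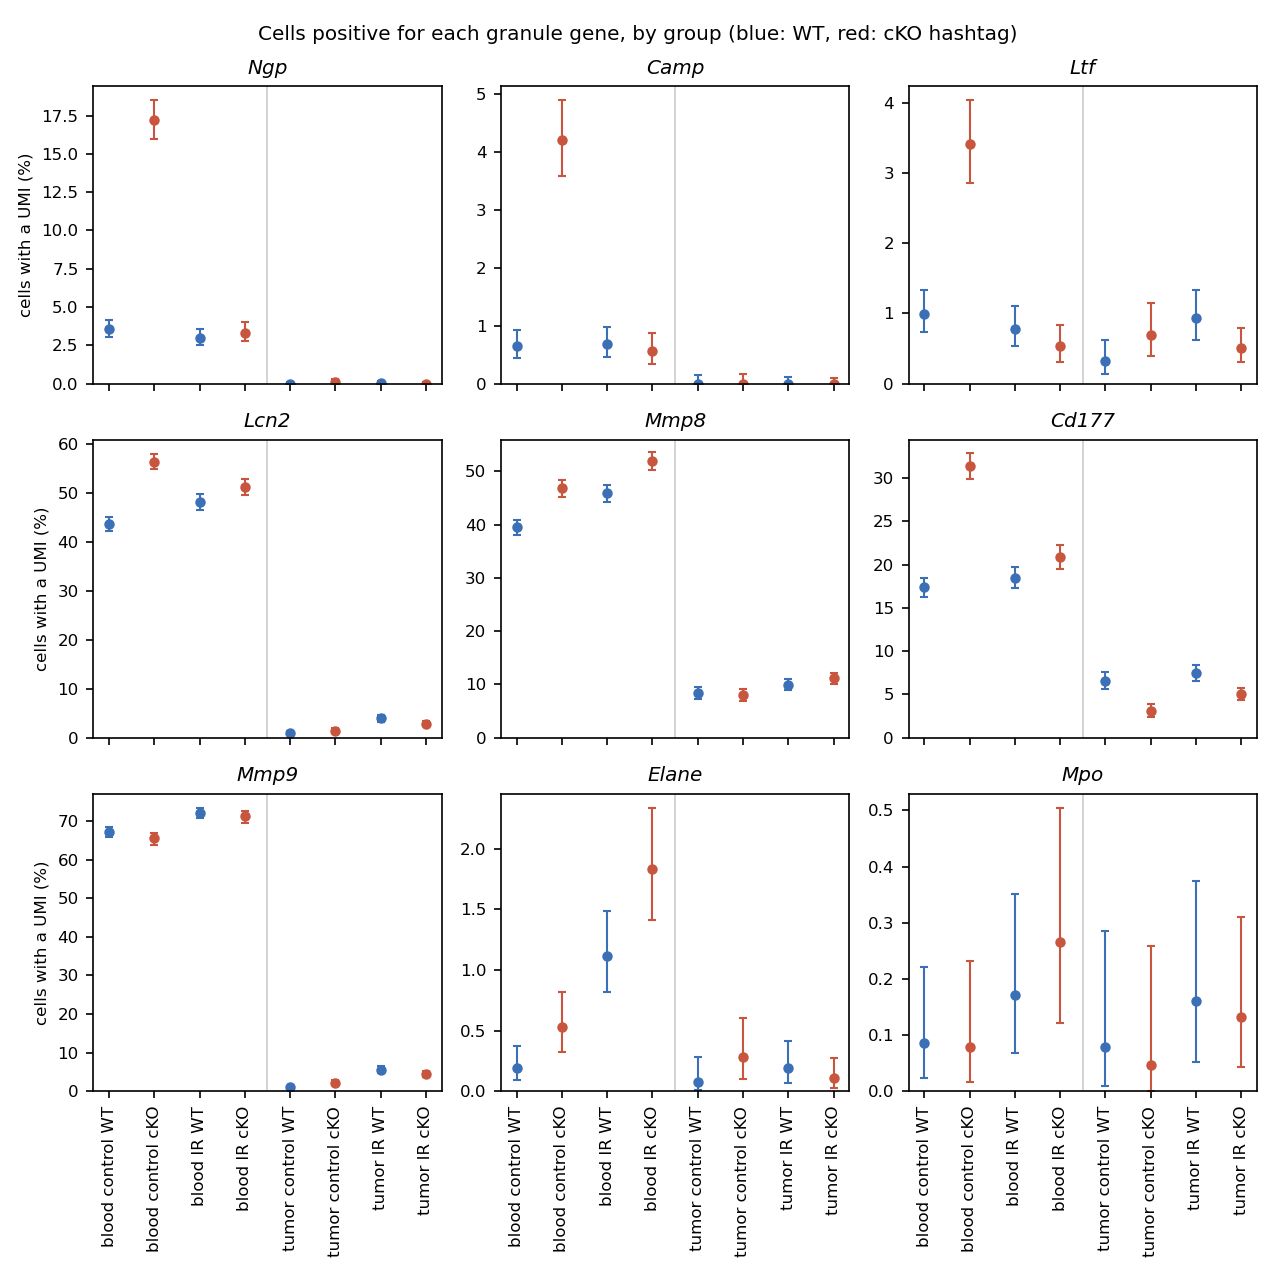
Share of cells with at least 1 UMI of each gene (percent, each panel with its own axis from 0) in the 8 groups, with blood at the left of the grey line and tumor at the right, WT in blue and cKO in red; bars are 95% Clopper-Pearson intervals. Ngp, Camp, Ltf, Lcn2 and Cd177 are highest in the cKO cells of control blood (17.2%, 4.21%, 3.41%, 56.4% and 31.4%), whereas Elane is highest in the cKO cells after IR (1.83%).

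Depth and free RNA affect such shares. When each cell was thinned to 1000 UMIs, with 9 to 56 cells per blood group left out as too shallow, the Ngp shares were 1.25% in WT and 10.8% in cKO control blood and 1.40% and 1.39% after IR. Cd177 fell to 4.73%, 12.3%, 4.47% and 5.28% in the same order, and Lcn2 to 30.3%, 45.4%, 34.7% and 35.7%. The 537 lymphoid cells of blood (B, T and NK cell-like, median 3448 UMIs), which should lack these messages, gave the level of free RNA. In them Ngp was found in 0.931% of cells, Camp and Ltf in 0.372%, Elane in 0.186%, Lcn2 in 4.10%, Mmp8 in 2.42%, Cd177 in 1.86%, Mmp9 in 5.03% and Mpo in 0 of 537 cells, which allows a share of up to 0.559%. The shares of Mpo, those of Camp and Ltf outside the cKO control pool and those of Elane in control blood were thus within or below the 95% interval of the lymphoid shares, and no difference among them is read. In the barcodes taken as empty droplets, Mmp9 reached 744 CPM in blood control and 956 CPM in blood IR, Lcn2 804 and 568 CPM, and Ngp 303 and 137 CPM.

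Neutrophil-like cells carried most of the granule message in blood. Of all UMIs of the 9 genes, they held 94.7% (94.5 to 94.8) in blood control and 90.8% (90.6 to 91.0) in blood IR. The division differed between genes. In blood control, neutrophil-like cells held 99.7% of 24419 Ngp UMIs, 99.3% of 2559 Camp UMIs, 99.7% of 6071 Ltf UMIs, 97.1% of Lcn2 and 96.9% of Mmp9 UMIs. They held 84.9% of Mmp8 UMIs, 55.9% of Cd177 UMIs, 1 of 102 Elane UMIs and none of 95 Mpo UMIs. In blood IR the Cd177 part was lower, at 35.9%, and the Ngp part was 98.1%.

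A single neutrophil-like cluster held nearly all Ngp, Camp and Ltf. Its 694 cells came from blood, 553 from control and 141 from IR, and 8 of 14 markers of early neutrophils were at least 2-fold above the other neutrophil-like cells, against 0 of 11 markers of late neutrophils. Ly6g was at 546 CPM in these cells and 81.7 CPM in the other neutrophil-like cells, Ifitm6 at 2211 and 227 CPM, and the late marker Il1b at 1914 and 10189 CPM. Other markers differed less or went the other way. The early marker Tuba1b was at 5.10 and 11.2 CPM and Pgam1 at 172 and 133 CPM. The late marker Cxcr2 was at 1124 and 1801 CPM and Il1r2 at 578 and 596 CPM. The cells of this cluster are called early neutrophil-like cells below. They held 97.1% of the Ngp UMIs of blood control and 95.9% of those of blood IR, 98.8% and 90.7% of Camp, and 99.2% and 99.1% of Ltf. For Lcn2 these parts were 50.7% and 22.0%, for Mmp8 47.2% and 12.7%, for Cd177 39.0% and 13.2%, and for Mmp9 19.6% and 5.53%. None of the members or the other granule genes had been used to form the clusters.

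The levels fell off across the blood clusters at different rates. Ngp was at 9791 CPM in the early cells and at 49.6, 26.2 and 7.87 CPM in the neutrophil-like clusters numbered 0, 8 and 1. Camp went from 1228 CPM to between 0.750 and 1.52 CPM, and Ltf from 2565 CPM to between 1.25 and 2.13 CPM. Lcn2 was at 8718 CPM in the early cells and still at 2103, 1278 and 818 CPM in those 3 clusters, and Mmp8 at 2323 and then 571, 360.3 and 241 CPM. Mmp9 differed least, at 2116 CPM in the early cells and 1839, 1677 and 1666 CPM in the others. Among neutrophil-like cells the order of spread thus ran from Camp and Ltf, through Ngp, to Lcn2, Mmp8 and Cd177, and then to Mmp9.

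**Figure D2:**
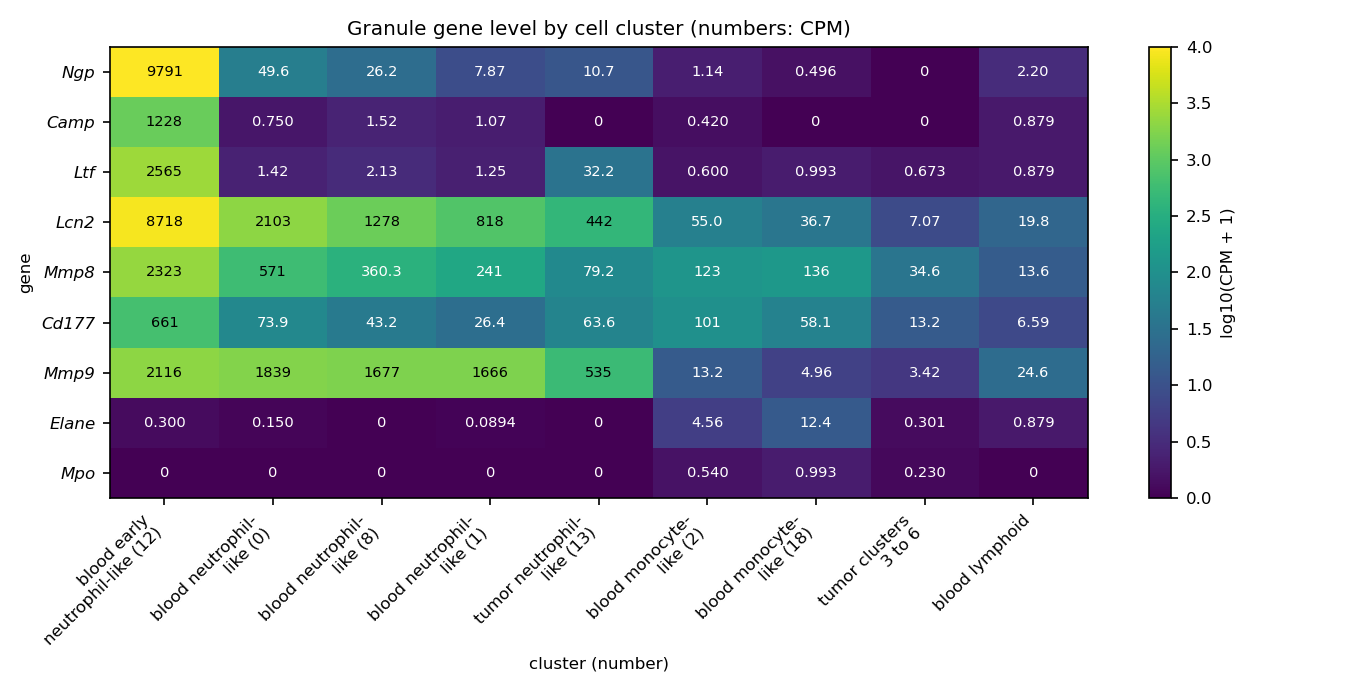
Level of each gene (CPM, printed in each cell, color on a log10 scale) in the early and other neutrophil-like clusters, the monocyte-like clusters 2 and 18, the tumor myeloid clusters 3 to 6 as 1 sum, and the lymphoid cells of blood. Ngp, Camp and Ltf drop from 9791, 1228 and 2565 CPM in the early cells to below 50 CPM in every other column, while Mmp9 stays at 1666 CPM or more in all blood neutrophil-like columns.

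Within the early cells the message was again held by a minority. Of the 694 cells, 83 had 100 or more Ngp UMIs, 424 had 1 to 99 and 187 had none. In the first set Camp was found in 98.8%, Ltf in 100% and Cd177 in 100% of cells, in the second Camp in 25.7%, Ltf in 17.0% and Cd177 in 79.2%, and in the third Camp in 0.535%, Ltf in 0% and Cd177 in 36.4%. Cebpe, the C/EBP factor of the specific granule stage, was found in 60.2%, 8.02% and 4.81% of these sets, and Il1b in 27.7%, 77.8% and 96.3%. The sets differed in depth as well, with medians of 8795, 4296.5 and 3502 UMIs. Top2a, a marker of dividing cells, was in none of the cells of the last 2 sets, and Mki67, another, was found in 2.41%, 0% and 0.535%. The 3 cells with most Ngp UMIs (923, 888 and 784), all from WT blood after IR, held 280, 544 and 403 Lcn2 UMIs but no Mmp8 UMI.

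Counted over blood, 50% of all Ngp UMIs lay in 35 cells, 50% of Ltf in 28 and 50% of Camp in 23 cells. The same part took 712 cells for Cd177, 776 for Lcn2, 1073 for Mmp8 and 2766 for Mmp9. For Elane and Mpo, 1 cell each held 62.7% and 54.4% of the UMIs. The molecules of a cell are not independent draws of a group, so for Ngp, Camp, Ltf, Elane and Mpo the number of cells gives a better view of the precision than the number of UMIs.

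**Figure D3:**
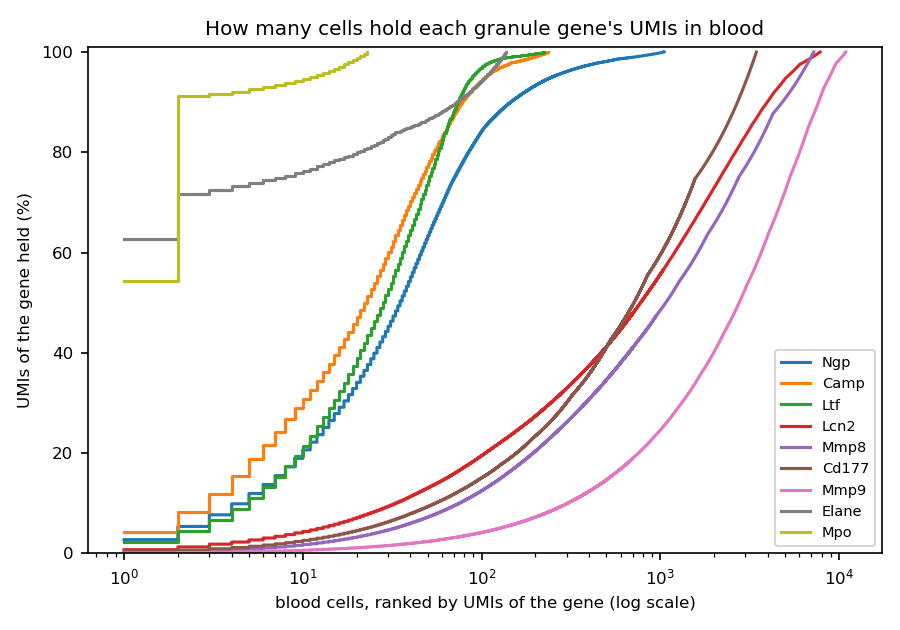
Percent of each gene's UMIs in blood (vertical axis) held by the cells with the most UMIs of it (number of cells on a log scale, horizontal axis), 1 line per gene. The 100 richest cells hold 84.2% of Ngp, 94.4% of Camp and 97.0% of Ltf UMIs but 19.5% of Lcn2 and 4.17% of Mmp9 UMIs.

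Expression of one member was tied to that of others in the same cells. Of 236 blood cells with a Camp UMI, 83.9% also had Ngp, 57.2% Ltf, 91.1% Lcn2 and 86.0% Cd177. Among all blood cells these shares were 6.63% for Ngp, 1.42% for Ltf, 49.4% for Lcn2 and 21.7% for Cd177. Of 225 cells with an Ltf UMI, 70.2% had Ngp and 60.0% Camp. The reverse shares were lower, since Camp was found in 18.8% and Ltf in 15.0% of 1053 cells with Ngp. Elane-positive cells were different, because 1.46% of 137 cells also had Ngp and none had Ltf. Of these cells, 74.5% had Mmp8 and 51.1% Cd177, against 45.5% and 21.7% of all blood cells. Lcn2 was found in 32.8% and Mmp9 in 11.7%, against 49.4% and 68.9%.

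The comparison of cKO with WT asks whether loss of YTHDF2, a reader of m6A-modified mRNA that promotes mRNA decay, goes with other levels of these messages. A difference was called when it reached 1 on the log2 scale and the 2 groups together held at least 100 UMIs. In control blood, 7 of the 8 members with enough UMIs were higher in cKO, against 0.675% of 9635 genes called higher in this comparison. Ngp was at 1115 CPM in cKO and 144 CPM in WT, a log2 ratio of 2.95 (2.90 to 3.01). Camp was at 115 and 16.7 CPM (2.78), Ltf at 267 and 45.1 CPM (2.56) and Lcn2 at 1702 and 579 CPM (1.56). Mmp8 was at 481 and 207 CPM (1.22) and Cd177 at 165 and 73.0 CPM (1.18). Elane was called higher on 90 and 12 UMIs (2.97, 2.20 to 4.08), but 58 of the 90 lay in 1 macrophage-like cell. Without it Elane had 32 and 12 UMIs, under the minimum, and 6 members were called. Mpo had 91 and 4 UMIs, also under the minimum. Mmp9, the gelatinase granule member, was at 689 and 673 CPM, a log2 ratio of 0.03 (0.00 to 0.07). The median log2 ratio was 2.06 over the 8 members and 0.01 over the genes with enough UMIs.

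The number of early cells moved with these levels. In control blood, early cells were 44 of 3120 neutrophil-like cells in WT, or 1.41% (1.03 to 1.89), and 509 of 2526 in cKO, or 20.2% (18.6 to 21.8). Both genotypes were in 1 library, so the difference lay between the pools and not between libraries, but a pool does not show how many of its mice contributed. Inside the early cells no member reached the limit. Ngp was at 8821 CPM in cKO and 12585 CPM in WT, Camp at 923 and 1515 CPM, Ltf at 2152 and 4103 CPM, and Lcn2 at 8745 and 9297 CPM, all lower in cKO. Mmp8, at 2499 and 2281 CPM, and Cd177, at 725 and 569 CPM, were slightly higher. Cells with 100 or more Ngp UMIs numbered 55 of 3779 in cKO, or 1.46% (1.10 to 1.89), and 10 of 4618 in WT, or 0.217% (0.104 to 0.398). Lyz2 in the early cells was at 79.1 CPM in cKO and 7252 CPM in WT, the same order as over all cells. How many cells were called early moved with the settings, from 273 to 628 in control cKO and from 21 to 81 in control WT.

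**Figure D4:**
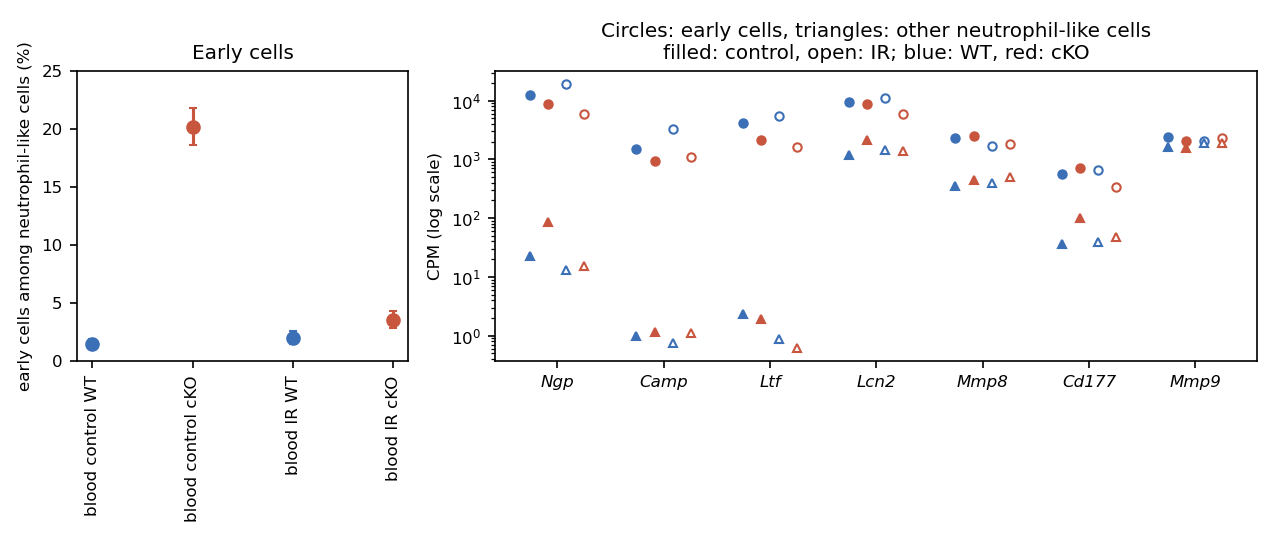
Left, early cells as a percent of neutrophil-like cells in the 4 blood groups with 95% Clopper-Pearson intervals. Right, CPM (log scale) of 7 members in early (circles) and other (triangles) neutrophil-like cells, WT in blue and cKO in red, control filled and IR open. The cKO control pool has 20.2% early cells against 1.41% to 3.50% in the other groups, whereas within early cells its Ngp level of 8821 CPM is below the 12585 CPM of WT.

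Among all neutrophil-like cells of control blood, 6 of 7 members with enough UMIs were called higher in cKO, against 1.85% of 6114 genes. Without the early cells, 2 of 5 members were called higher, against 0.669% of 5826 genes. These were Ngp, at 85.7 CPM in cKO and 22.9 CPM in WT (log2 ratio 1.90, 1.65 to 2.16), and Cd177, at 98.6 and 35.8 CPM (1.46, 1.25 to 1.68). Lcn2 remained higher by less than the limit, at 2145 and 1198 CPM (0.84), and Mmp8 was at 441 and 349 CPM (0.34). Camp and Ltf had 14 and 29 UMIs left in both groups together. Whether these are early cells that the clustering placed elsewhere was not tested.

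After IR the comparison of cKO with WT in blood ran the other way for 5 of 9 members, against 0.519% of 9643 genes called lower. Ngp was at 128 CPM in cKO and 310.2 CPM in WT, a log2 ratio of -1.27 (-1.34 to -1.21). Camp was at 23.5 and 57.8 CPM (-1.29), and Ltf at 34.6 and 85.7 CPM (-1.31). Elane was at 4.23 and 21.0 CPM (-2.30) and Mpo at 0.476 and 6.17 CPM (-3.57), but 1 WT cell held 407 of 467 Elane and 131 of 137 Mpo UMIs. Without the cell with most UMIs the ratio was 0.64 for Elane and 0.72 for Mpo, on 15 UMIs, and 3 members were called. Lcn2 (-0.16), Mmp8 (0.33), Cd177 (-0.00) and Mmp9 (-0.10) were not called. These ratios rest on few cells, as 14 of 4097 WT and 5 of 3382 cKO cells had 100 or more Ngp UMIs, or 0.342% (0.187 to 0.573) and 0.148% (0.0480 to 0.345), with overlapping intervals. Those cells held 93.7% and 85.8% of the Ngp UMIs of their groups. The share of Ngp-positive cells did not fall with the UMIs, at 123 of 4097 in WT and 113 of 3382 in cKO, nor did the early cells, at 57 of 2905 neutrophil-like cells in WT, or 1.96% (1.49 to 2.53), and 84 of 2399 in cKO, or 3.50% (2.80 to 4.32). The number of early cells after IR moved with the settings, from 23 to 130 in WT and from 22 to 167 in cKO. With the HTODemux hashtag rule there were 23 in WT and 22 in cKO, and with a mitochondrial maximum of 10% 26 and 24. Ngp was at 18808 CPM in the early cells of WT and 5928 CPM in those of cKO. Among neutrophil-like cells, 3 of 7 members were called lower in cKO after IR, against 0.441% of 6123 genes, and without the early cells none of the 5 with enough UMIs reached the limit, Ngp being at 15.4 CPM in cKO and 13.2 CPM in WT.

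**Figure D5:**
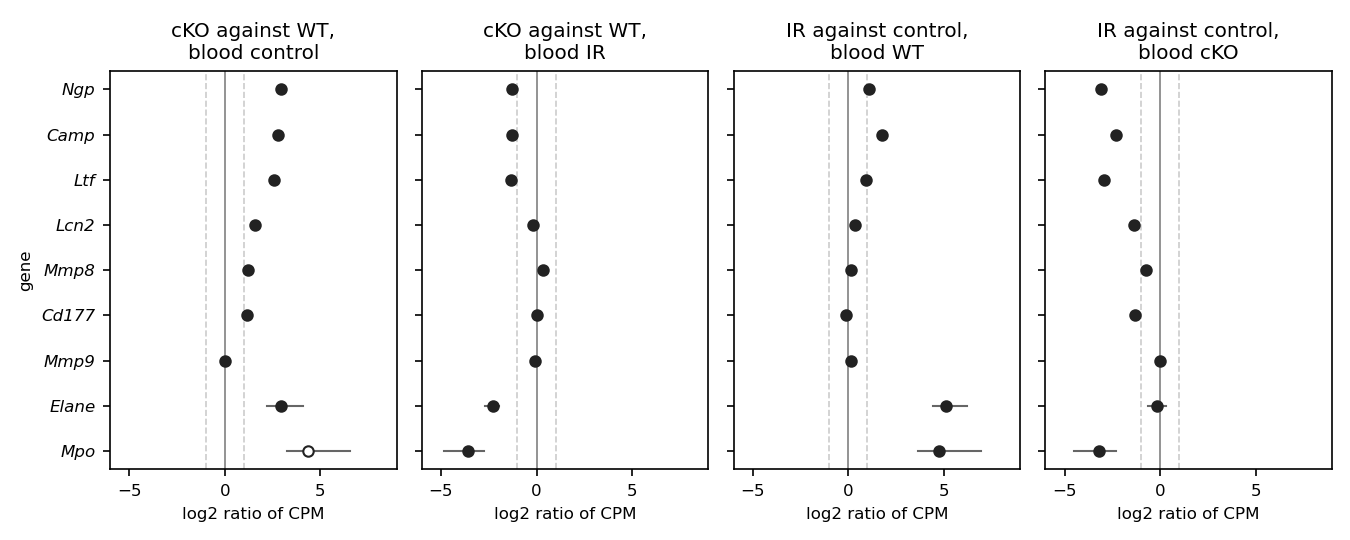
Log2 ratio of CPM of the 9 genes in the 4 blood comparisons, over all kept cells, with 95% counting intervals; dashed lines mark the limit of 1, and an open circle marks a gene with under 100 UMIs. Ngp, Camp and Ltf lie at 2.56 to 2.95 for cKO against WT in control and at -1.31 to -1.27 after IR, and Mmp9 lies near 0 in all 4 panels.

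The comparison of IR with control asks how irradiation of the tumor went with granule messages in circulating cells, and here treatment and library cannot be told apart. In WT blood, 4 of 9 members were called higher after IR, against 0.338% of 9767 genes. Camp was at 57.8 CPM after IR and 16.7 CPM in control (log2 ratio 1.78, 1.62 to 1.96), and Ngp at 310.2 and 144 CPM (1.10). Ltf, at 85.7 and 45.1 CPM (0.92), stayed under the limit. Elane (5.12) and Mpo (4.74) were called only through 1 cell. Without it Elane was at 2.18 on 60 and 12 UMIs and Mpo at 0.45 on 6 and 4, both under the minimum. Lcn2, Mmp8, Cd177 and Mmp9 had ratios from -0.13 to 0.33. In WT, 166 of 4618 cells had Ngp in control and 123 of 4097 after IR, while the UMIs per Ngp-positive cell were 18.6 and 56.0. Without the 1 cell with most Ngp UMIs, which held 923, the Ngp ratio was 0.90. When each gene was compared without the cell with most of its own UMIs, 1 of 9 members was called, Camp at 1.56.

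In cKO blood, 6 of 9 members were called lower after IR, against 0.916% of 9500 genes. Ngp was at 128 CPM after IR and 1115 CPM in control (log2 ratio -3.12, -3.18 to -3.06), Ltf at 34.6 and 267 CPM (-2.94) and Camp at 23.5 and 115 CPM (-2.29). Lcn2 was at 652 and 1702 CPM (-1.38) and Cd177 at 66.4 and 165 CPM (-1.32). Mpo was called on 9 and 91 UMIs, of which 89 lay in 1 control cell. Without that cell Mpo was under the minimum, and Elane, at 80 and 32 UMIs without its own richest cell, was higher after IR (1.31). Mmp8 was at 284 and 481 CPM (-0.76) and Mmp9 at 695 and 689 CPM (0.01). The comparison uses the same cKO control pool as the one above, and early cells went from 509 of 2526 to 84 of 2399 neutrophil-like cells. Among neutrophil-like cells, 2 of 7 members were higher after IR in WT, against 0.303% of 6272 genes, and 5 of 7 were lower in cKO, against 1.38% of 5961 genes. Without the early cells, 2 of 5 were lower in cKO, Ngp (-2.46) and Cd177 (-1.03), against 0.606% of 5608 genes.

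Elane and Mpo, the azurophil members, had another source. Of 649 Elane UMIs in blood, 407 lay in 1 WT cell after IR, which also held 131 Mpo, 292 Prtn3, 157 Ngp and 143 Camp UMIs among its 28728 UMIs. A cKO cell of control blood held 58 Elane, 89 Mpo and 233 Prtn3 UMIs among 34125 UMIs and no Ngp, Camp or Ltf. They held 89 and 126 UMIs of cell cycle genes, and the clustering had placed them with macrophage-like cells although neither held a C1qa UMI. Monocyte-like cells held another 177 of the Elane UMIs, at most 6 in 1 cell. Elane was found in 9 of 782 monocyte-like cells of control WT (1.15%), 17 of 678 of control cKO (2.51%), 43 of 813 of IR WT (5.29%) and 60 of 759 of IR cKO (7.91%). Prtn3, a related azurophil protease, was found in 20.7%, 29.8%, 43.2% and 53.0% of these cells in the same order. Both shares were thus higher after IR in each genotype, at median depths of 9975 to 12917 UMIs, which were also higher after IR. Most of these cells were in cluster 2, but the dividing monocyte-like cluster 18, with Ccnb2 among its leading genes, held 140 cells of blood IR and 3 of blood control, and Elane was found in 11.9% of it and 3.88% of cluster 2. Elane in neutrophil-like cells came to 4 UMIs and Mpo to 0 over 10950 blood cells, where 0 allows a share of up to 0.0274%.

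Mmp8 and Cd177 were shared with monocyte-like cells. Mmp8 was found in 57.4% and Cd177 in 53.2% of 3032 monocyte-like cells of blood (median 11284.5 UMIs), and in 48.3% and 14.7% of neutrophil-like cells (median 2606.5 UMIs). As a level, Mmp8 was at 123 CPM in monocyte-like and 618 CPM in neutrophil-like cells, and Cd177 at 98.2 and 116 CPM. Ngp (1.10 CPM), Camp (0.396 CPM) and Ltf (0.622 CPM) in monocyte-like cells were at or below their levels in lymphoid cells, 2.20, 0.879 and 0.879 CPM. By group, Cd177 in monocyte-like cells was at 128 CPM (121 to 136) in control WT and 115 CPM (108 to 124) in control cKO, and at 83.8 (78.3 to 89.5) and 76.9 CPM (71.5 to 82.5) after IR. It was thus lower after IR in both genotypes, and the cKO interval overlapped that of WT in each library. Lcn2 in monocyte-like cells was at 23.3 CPM in control WT, 69.1 in control cKO, 42.4 in IR WT and 80.2 in IR cKO, higher in cKO in both libraries, while lymphoid cells of blood held 19.8 CPM. In the same order, 12.5%, 20.6%, 15.6% and 26.4% of the monocyte-like cells had Lcn2. Doublets with neutrophils were removed only by score, and their part in these Lcn2 values was not tested.

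In tumors the early granule messages were almost absent. Camp had 0 UMIs in all 4 tumor groups, 0 of 2522, 2145, 3119 and 3766 cells, which allows shares of up to 0.119%, 0.140%, 0.0962% and 0.0797%. Ngp had 12 UMIs in 2 cells of tumor control cKO, 1 UMI in tumor IR WT and 0 in the other tumor groups. If UMIs were independent draws, a count of 0 would put Camp at least 113-fold lower in tumor than in blood for control WT. For control cKO it would be at least 913-fold. Camp UMIs lay in few cells, so these folds are not lower bounds. By cells, Camp was found in 0.650% of control WT and 4.21% of control cKO blood cells, against shares of up to 0.119% and 0.140% in tumor. Among the members with enough UMIs, 7 of 7 were called lower in tumor than in blood in control WT (15.6% of 10397 genes were), 7 of 7 in control cKO (16.6%), 9 of 9 in IR WT (16.5%) and 7 of 7 in IR cKO (16.3%). In IR WT, Elane and Mpo had enough UMIs only through 1 blood cell, and without the cell with most UMIs of each gene 7 members were called. The smallest of these differences was that of Cd177 in IR WT, at 14.1 CPM in tumor and 66.6 CPM in blood. The tumor groups held 0.714% to 10.5% neutrophil-like cells and no early ones, and tissue and library cannot be told apart.

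What was detected in tumors came from different cells for each member. As background, the 437 lymphoid cells of tumors (median 2714 UMIs) held no Mmp8 or Lcn2 UMI, which allows a share of up to 0.686%, and 1 cell each (0.229%) held Cd177 and Mmp9. Empty droplets of the control and IR tumor libraries held Mmp8 at 14.4 and 22.4 CPM and Mmp9 at 13.6 and 15.5 CPM, on at most 29 UMIs each, where the tumor groups were at 13.3 to 33.2 CPM and 1.58 to 20.7 CPM. The same droplets held Lcn2 at 4.54 and 12.4 CPM and Cd177 at 3.03 and 10.8 CPM, and the part of free RNA in the tumor levels was not tested. Mmp8 was found in 7.93% to 11.1% of tumor cells, and unnamed clusters held 1980 of its 2146 UMIs, with the highest level, 84.9 CPM, in cluster 5, whose leading genes include Mmp13 and Mmp12. They also held 755 of 846 Cd177 UMIs, with the highest level, 36.7 CPM, in cluster 4, so the 2 genes were highest in different clusters. Neutrophil-like cells held 3.18% of Mmp8 and 3.14% of Cd177 UMIs in control tumors, and 5.62% and 12.7% after IR. Lcn2 and Mmp9 were divided otherwise, with 24.1% and 20.7% of their UMIs in neutrophil-like cells without IR and 69.4% and 73.4% with IR. Over the 9 genes the parts were 9.69% and 35.9%, and with the order-of-magnitude threshold alone, which leaves out small cells, they were 0% and 11.9%. In tumor neutrophil-like cells Mmp9 was at 533 CPM and Lcn2 at 444 CPM, against 1789 and 2263 CPM in those of blood. Ltf was at a higher level there than in the blood neutrophil-like cells outside the early cluster, with 39 UMIs or 31.8 CPM (22.6 to 43.5) in tumor and 1.44 CPM in blood, and it was found in 27 of 619 cells, at most 5 UMIs in 1 cell. Cd177 was at 62.9 CPM in tumor and 51.2 CPM in those blood cells.

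In tumor control, Mmp9 was called higher in cKO than in WT (7.18 and 1.58 CPM, log2 ratio 2.15), against 3.50% of 10677 genes called higher, and Lcn2 (3.61 and 9.08 CPM, -1.32) and Cd177 (3.78 and 11.2 CPM, -1.56) were called lower, against 1.37%. These counts were small, and 1 macrophage-like cell of cKO held 87 of 171 Mmp9 UMIs and 1 unnamed cell of WT 74 of 184 Lcn2 UMIs. Without them the ratios were 1.14 and -0.58. In tumor IR, Lcn2 alone was called lower in cKO (10.5 and 21.1 CPM, -1.01), against 0.886% of 10042 genes, and without 1 cell it was -0.87. After IR, 2 of 4 members with enough UMIs were called higher in WT tumors, against 2.58% of 10159 genes, Mmp9 at 20.7 and 1.58 CPM (3.67) and Lcn2 at 21.1 and 9.08 CPM (1.21). In cKO tumors 4 of 4 were, against 5.16% of 10686 genes, Mmp9 at 16.6 and 7.18 CPM, with ratios of 1.53 for Lcn2, 1.32 for Mmp8 and 1.35 for Cd177. Without the cells of tumor control named above, Lcn2 was at 1.95 in WT and Mmp9 at 2.22 in cKO. Inside neutrophil-like cells of cKO tumors, Lcn2 was lower after IR, at 325 CPM and 728 CPM in control (-1.16, -1.65 to -0.65). The control value rested on 45 UMIs in 28 cells. In WT the difference was not called, at 493 CPM after IR and 651 CPM in control (-0.40, -1.05 to 0.33), with 20 UMIs in control. Neutrophil-like cells went from 18 to 328 in WT and from 28 to 245 in cKO at the same time.

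Other granule genes were examined by lists of their granule type. Of 8 other azurophil genes, 5 had enough UMIs in control blood and 2 were higher in cKO, Prtn3 (1.42) and Ctsg (1.53), against the 0.675% of all genes given above. Without the 1 macrophage-like cell with most of their UMIs, Prtn3 was at 0.82 and Ctsg under the minimum, so neither was called. The 4 with most UMIs in all were Srgn, the granule proteoglycan core serglycin, at 2673 CPM in cKO and 3602 CPM in WT (log2 ratio -0.43), Ctsc, which activates granule proteases (0.08), Cd63 (-0.11) and Prtn3. Of 8 other specific granule genes, 3 were higher in cKO, although the 4 with most UMIs, Cyba and Cybb of the oxidase, Hp and Pglyrp1, had ratios of 0.12, 0.21, 0.27 and 0.41. The 3 were Olfm4 (1.69), Itgb2l (2.50) and Orm1 (5.47), named after their values were seen, and early cells held 48.2%, 80.2% and 94.3% of their UMIs in blood. Of 5 other gelatinase granule genes, 1 was higher, Mmp25 (1.38), and Itgam, the CD11b chain, had a ratio of 0.25. After IR, 0 of these 21 genes were called in cKO against WT in blood. In IR against control, Olfm4 (-1.74), Itgb2l (-3.02), Orm1 (-5.30) and Mmp25 (-1.21) were lower in cKO. The azurophil genes Prtn3 (1.78) and Ctsg (1.21) and the specific granule gene Fcnb (1.82) were higher in WT. Without the cell with most UMIs these 3 were at 1.30, 0.73 and 1.08 in WT. In cKO blood, 1 macrophage-like control cell held 233 Prtn3 UMIs. Without it Prtn3 was also higher after IR by more than the limit, on 1023 UMIs against 450 in control. Ctsg and Fcnb, each without its own richest cell, stayed under the limit in cKO.

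None of 7 granulocyte transcription factors, of which 6 had enough UMIs, reached the limit in any of the 4 blood comparisons. Cebpb was at 2112 CPM in cKO and 2644 CPM in WT of control blood (-0.32), and Spi1, which encodes PU.1, at 851 and 771 CPM (0.14). Cebpe was at 75.6 CPM in early cells, 26.1 CPM in other neutrophil-like cells of blood and 9.50 CPM in monocyte-like cells. None of the 5 inhibitors of granule proteases, 3 with enough UMIs, reached the limit in blood either. Slpi, the secretory leukocyte protease inhibitor, was at 1567 and 2119 CPM in cKO and WT of control blood (-0.44), and was called higher after IR in tumors of both genotypes, at 807 and 292 CPM in WT (1.47) and 543 and 158 CPM in cKO (1.78). Serpinb1a, an inhibitor of elastase-type proteases, was at 287 CPM in early cells and 6.94 CPM in other neutrophil-like cells.

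Over 37 profiles, each the sum of at least 50 cells of 1 group and class, the genes most like each member were found from Pearson's r of log2(CPM + 5). The profiles share libraries and cell types, so these values are descriptions. For Camp, Ngp and Ltf together they were Slco4c1 (0.98), E230014E18Rik (0.98) and Entpd3 (0.97). Lcn2 was most like Wfdc21 (0.96), Gm39556 (0.96) and Vnn3 (0.96), and Mmp9 like Cxcr2 (0.98), Wfdc21 (0.97) and Retnlg (0.96). Mmp8 was most like Sirpb1b (0.94), Tmem154 (0.94) and Gm5150 (0.93), and Cd177 like Hp (0.93), Gsr (0.91) and F5 (0.89). For Elane with Mpo the values were lower, with Rnase2b (0.92), Fcnb (0.92) and Plppr3 (0.87).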

How the data were processed

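Per the labels, the study's methods and the file headers, the authors counted UMIs with Cell Ranger (6.0.1 in the submitters' processing notes, with Seurat 4.0.6; the headers name another version) against mm10 with GENCODE vM23, and the deposited values are raw counts per feature and barcode with no normalization. All barcodes were present, so cell calling was repeated. An order-of-magnitude threshold (1/10 of the 99th percentile of the top 8000 barcodes) was joined by a test of barcodes with 500 or more UMIs against the ambient profile (ranks 45000 to 90000, 10000 simulations, false discovery rate 0.01). Barcodes with under 200 genes, over 25% mitochondrial UMIs or under 20 hashtag UMIs were removed. Hashtags gave WT (B0301 at least B0302) or cKO (B0302 at least 4 times B0301), and 392 to 500 barcodes per library between these limits were left out. Scrublet (scanpy 1.11.5) marked at most 4 barcodes per library by its own threshold, which had not worked, so the 6% with the highest scores were removed in place of the authors' DoubletFinder. Seurat 5.3.0 clustered the cells (2000 variable genes without granule genes, Ythdf2, Lyz1 and Lyz2; 40 components; resolution 0.8). A marker counted as raised at 2-fold or more in at least 25% of cells, thresholds that came from earlier work on these data. A cluster was early neutrophil-like with 3 or more raised early markers and more of them than late ones.

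Group sums were compared as log2 ratios of CPM with 1 UMI (scaled to depth) added and exact conditional binomial intervals. CPM have exact Poisson and shares Clopper-Pearson intervals (scipy 1.17.1). With 1 pool per group, intervals and the limit of 3 counts for a count of 0 cover counting error only. The ratio was tested on simulated data. All 9 members are named; of each other list, the 4 genes with most UMIs; and the 3 genes most like each member or group of members. The members and lists were chosen with earlier results of these data known. Alternatives were another hashtag rule, cell calling, filters, scaling (edgeR 4.0.16), thinning and clustering. Total gene UMIs per matrix were 87703837, 81601307, 51731085 and 51653956 for tumor control, tumor IR, blood control and blood IR.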

Additional observations from a re-analysis of the deposited data

Results flagged for a closer look

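For 4 genes the log2 ratio of cKO to WT in blood was called higher in control and called lower after IR. Each call needed a difference of at least 1 on the log2 scale and at least 100 UMIs. The ratio in control minus that after IR was 4.22 for Ngp, 4.07 for Camp, 3.87 for Ltf and 5.27 for Elane. With 1 pool per group this difference was not tested. For Elane it rested on 1 cell with 407 UMIs, without which its ratio after IR was 0.64. For Ngp, Camp and Ltf the ratio after IR rested on few cells. Cells with 100 or more Ngp UMIs after IR numbered 14 in WT and 5 in cKO, and their shares had overlapping intervals. For Ltf such cells numbered 10 and 4, and for Camp 5 and 2. Without the richest cell the ratios stayed past the limit, at -1.07 for Ngp and Camp and -1.15 for Ltf. The share of Ngp-positive cells after IR was not lower in cKO, at 113 of 3382 against 123 of 4097 in WT.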

How the results depend on the processing

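The settings on early cells and on single cells were chosen after seeing the data. Without the early neutrophil-like cells, 2 members in place of 7 were higher in cKO in control blood. In cKO blood, 2 in place of 6 were lower after IR. Calls went from 5 to 4 for the genotypes in blood IR and from 4 to 3 for IR in WT blood. These counts still include 1 macrophage-like WT cell after IR, which held 407 Elane, 131 Mpo, 157 Ngp and 143 Camp UMIs. In the other neutrophil-like cells after IR, Ngp had 107 UMIs in WT and 99 in cKO, and Camp 6 and 7. Among neutrophil-like cells alone, calls of cKO against WT went from 6 to 2 in control and from 3 to 0 after IR, and calls of IR against control from 2 to 0 in WT and from 5 to 2 in cKO. Ltf then changed direction, to -0.50 for cKO against WT in control blood, to 1.23 for tumor against blood in IR WT and to 1.10 in IR cKO. Without the cell with most UMIs of each gene, calls went from 5 to 3 for the genotypes in blood IR, from 4 to 1 for IR in WT blood and from 1 to 0 for the genotypes in tumor IR. Elane (0.64) and Mpo (0.72) then changed direction for cKO against WT after IR in blood, and Mpo (1.75) for IR against control in cKO blood. The call in irradiated tumors was also lost with 5 UMIs added, with WT only at 4 times the cKO hashtag, with the order-of-magnitude threshold alone and with no Scrublet removal (0 each), and HTODemux gave 2. WT only at 4 times left 1 of 3 calls in unirradiated tumors, and the order-of-magnitude threshold 1 of 2 for IR against control in WT tumors. The cause of these changes was not tested. The call in irradiated tumors was that of Lcn2, whose ratio of -1.01 lay next to the limit.

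With WT only at 4 times the cKO hashtag, neutrophil-like cells held 12.3% and 34.3% of granule UMIs in control and IR tumors and 94.9% and 90.5% in control and IR blood. The order-of-magnitude threshold, which removes small cells, gave 0% and 11.9% in tumors in place of 9.69% and 35.9%, and 94.5% in control blood. A hashtag minimum of 50 gave 94.1% in control and 90.2% in IR blood. No Scrublet removal gave 33.2% in IR tumors, 90.7% in control blood and 89.1% in IR blood, and HTODemux gave 95.1% in control blood. Ngp shares thinned to 1000 UMIs were 1.25%, 10.8%, 1.40% and 1.39% in the order control WT, control cKO, IR WT and IR cKO, and the order-of-magnitude threshold gave 18.6% in control cKO. Early cells numbered 339 to 1007 over the settings, with 350 at a mitochondrial maximum of 10%, and held 91.9% to 97.7% of Ngp UMIs. Of 1404 log2 ratios under other settings, 1352 stayed on the same side of the limit. A ratio on under 100 UMIs counted as not called, so the agreement of ratios under that minimum was largely set in advance and shows little. No paired analysis was possible because each group is 1 sample, and no replicate could be left out. Mpo, Elane or Camp held under 100 UMIs in several comparisons, where they could not be called.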

Other observations

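Nonclassical monocyte-like cells of blood (980 cells, median 9504 UMIs) carried Lcn2 at 95.8 CPM and Mmp9 at 102 CPM, in 17.3% and 22.8% of cells, above the 53.9 and 12.7 CPM of monocyte-like cells. Lymphoid cells of blood held 19.8 CPM of Lcn2 and 24.6 CPM of Mmp9. Mmp9 in the nonclassical cells was at 136 CPM (122 to 152) in control WT and 62.3 CPM (54.4 to 70.9) in control cKO, and at 145 CPM (129 to 161) and 79.7 CPM (66.2 to 95.1) after IR, lower in cKO in both libraries. Doublets with neutrophils were removed only by score, and their part in these values was not tested.

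Serpinb1a was at 287 CPM in early neutrophil-like cells, 58.4 CPM in monocyte-like cells and 6.94 CPM in other neutrophil-like cells of blood. Prtn3 went the other way, at 63.9 CPM in monocyte-like cells, 0.600 CPM in early cells and 2.48 CPM in other neutrophil-like cells.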
